A study of Mus musculus with 18 samples.

Results

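The apex of 3 mouse hearts labelled Lmna shRNA was compared with the apex of 3 control hearts of the same batch, named LA. The libraries were taken by their labels alone and make up 6 of the 18 libraries of the series. All 6 hearts were labelled WT in genotype. One group of 3 carried the treatment label Lmna shRNA and the code L881 in its titles, and the other group of 3 carried the word control. Per the design text, dilated cardiomyopathy was produced by knockdown of Lmna and the delivery platform was rAAV9, a recombinant adeno-associated virus of serotype 9. What the control hearts received, the sequence of the shRNA, the promoter that drives it, its dose, the time after delivery and the age of the mice are not given in the sources used here. The library number of the third control stands apart from those of the other 5 libraries. The remaining 12 libraries, which are the controls and shRNA hearts of batch LC and the hearts given lamin A or lamin C, entered the shared estimate of the spread, and those of batch LC without added lamin also entered a comparison of the effect between batches. The labels do not tell whether libraries came from separate cages or litters, so the p-values measure only the spread between these samples, which may be technical.

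Lamins A and C are both made from Lmna and form a mesh beneath the inner nuclear membrane. The mesh carries mechanical load from the cytoskeleton to chromatin, and changes in Lmna cause inherited dilated cardiomyopathy with conduction disease, in which the ventricle widens, contracts weakly and scars. A failing ventricle is known to switch on genes of the fetal myocardium, to lower genes of fatty acid oxidation, and to gain matrix made by activated fibroblasts.

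Library totals ran from 32003727 to 36596256 counts. The controls held 15587 to 15776 genes with at least 10 counts, and the hearts labelled Lmna shRNA held 17209 to 17307. The mitochondrially encoded share of counts was 26.7% ± 0.326 (SD, n = 3) in the controls and 14.4% ± 0.562 in the other group, a gap in which no library overlapped (exact permutation test, two-sided, p = 0.1, the smallest that 3 against 3 libraries allow). Levels are given as CPM, counts relative to a library total that was scaled by the trimmed mean of M values (TMM). Differences are log2 fold changes from edgeR, as shRNA-labelled minus control hearts. The value after ± is a standard error worked back from the edgeR test, as the size of the change divided by the square root of its F statistic. It is approximate and can be too small where a group holds few counts. A gene is said to rise or fall only where the quasi-likelihood test of edgeR gave a Benjamini-Hochberg adjusted p under 0.05. Where a pair of CPM values stands in brackets, the first is the mean of the 3 controls and the second the mean of the 3 shRNA-labelled hearts.

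The labelled target did not fall. Lmna (ENSMUSG00000028063, chromosome 3, 88480147 to 88509956, mm10) held 120.0, 119.6 and 112 CPM in the controls and 127, 122 and 130.3 CPM in the hearts labelled Lmna shRNA, a difference of 0.11 ± 0.08 (edgeR adjusted p = 0.258). The groups lay close together, with the lowest shRNA-labelled library above the highest control. With libraries scaled by their totals alone the difference was 0.55 and was called higher (edgeR adjusted p = 1.65e-05). Gene counts do not separate lamin A from lamin C transcripts. Because Lmna was not lower, the groups are named by their labels, and each direction given here rests on those labels.

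Of 54532 genes listed, 17876 passed the filter on low counts, and 10975 of these were called, 61.4% of those tested. Higher were 5784 (32.4%) and lower 5191 (29.0%). Counts of a gene list given below are to be read against these shares. Rises were larger than falls: 1139 genes rose and 261 fell by at least 4-fold, and 259 rose and 15 fell by at least 16-fold. In 12116 genes (67.8%) the 3 shRNA-labelled libraries did not overlap the 3 controls. The median of all genes tested was 0.05. Scaled by library totals the median was 0.48, and of 12907 calls 10637 were higher and 2270 lower, so 82.4% of calls were higher in place of 52.7%. By level, the most abundant rises were Nppa, Ankrd1, Col3a1, Des and Clu, an extracellular chaperone (2.89 ± 0.19, 395 and 2917 CPM), and the most abundant falls were mt-Co1, mt-Cytb, mt-Nd5, Myh6 and mt-Nd1. Genes and groups of genes whose direction turns with that scaling are named where they are described. Of the called genes named in the text by a change, Slc25a5 and Cox6a1 were the ones whose groups overlapped. In whole apex tissue, fewer cells of a type and less RNA per cell cannot be told apart.

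**Figure D1:**
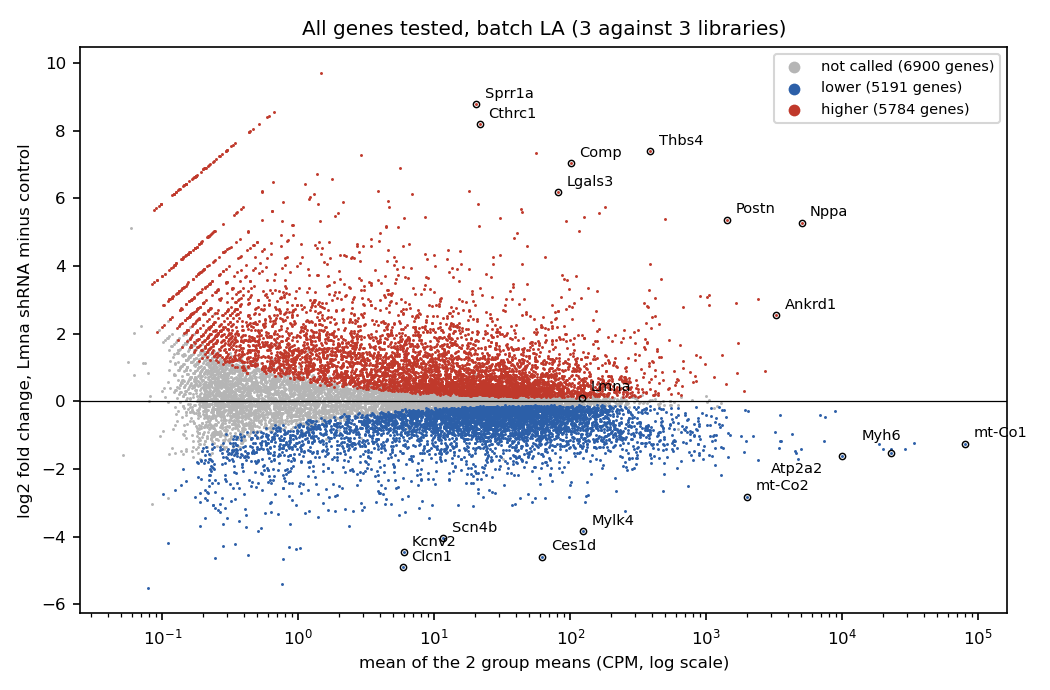
Log2 fold change of each gene tested (y axis) against the mean of the 2 group means in CPM (x axis, log scale), with genes higher in red, lower in blue and not called in grey; 1 gene with no counts in batch LA is not drawn. The 5784 higher and 5191 lower genes spread over the whole range of expression, and the named rises reach 8.78 while the named falls reach -4.91.

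Among protein-coding genes that reached 5 CPM the steepest rise belonged to Sprr1a, a small proline-rich protein induced in stressed cardiomyocytes (ENSMUSG00000050359, chromosome 3, 92483952 to 92485895, mm10). It held 0.159, 0.0653 and 0.0361 CPM in the controls and 50.4, 34 and 37.4 CPM in the shRNA-labelled hearts, a rise of 8.78 ± 0.49. Cthrc1, secreted by collagen-producing fibroblasts, rose by 8.19 ± 0.59, from 0.191, 0.131 and 0.108 to 42.2, 40.6 and 47 CPM. Both genes were near the limit of detection in every control and plainly present in every shRNA-labelled heart. Thbs4, a thrombospondin of the matrix, stood at 4.84, 3.92 and 5.01 CPM in the controls and at 678, 798 and 837 CPM in the shRNA-labelled hearts (7.39 ± 0.38). Its relative Comp stood at 1.46, 1.4 and 1.7 CPM in the controls and at 220.3, 152 and 226 CPM in the other group (7.03 ± 0.52). The proteoglycan Fmod moved from 0.509, 0.686 and 0.866 to 94, 112 and 129 CPM (7.35 ± 0.53). In each of these matrix genes all 3 shRNA-labelled libraries stood far above all 3 controls. Lgals3, the galectin of activated macrophages, rose by 6.18 ± 0.19, from 2.48, 1.96 and 2.13 to 178, 151 and 150.4 CPM. Col8a2, a short-chain collagen, rose by 5.84 ± 0.35 (0.7 and 41 CPM), and Serpinb9b, an intracellular protease inhibitor, by 6.14 ± 0.34 (0.183 and 13.5 CPM). Mylk2, the myosin light chain kinase of skeletal muscle, rose by 6.20 ± 0.31 (0.1 and 7.63 CPM), and 1500015O10Rik by 6.89 ± 0.59 (0.0894 and 11 CPM). Chil1, a chitinase-like lectin, had 3 counts over the controls and 731 over the shRNA-labelled hearts, a ratio of 172 (95% interval 58.5 to 834, for counting error only).

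The 12 largest falls under the same limit included channels, transporters, a kinase and a mitochondrially encoded gene. Clcn1, a chloride channel that steadies the resting potential of muscle (ENSMUSG00000029862, chromosome 6, 42286685 to 42315756, mm10), held 10.3, 8.33 and 15.7 CPM in the controls and 0.495, 0.428 and 0.209 CPM in the shRNA-labelled hearts and fell by 4.91 ± 0.33. Ces1d, a carboxylesterase that hydrolyses lipid esters, fell by 4.59 ± 0.32, from 111, 124 and 124 to 3.4, 6.07 and 5.5 CPM. The third control was the highest for Clcn1, yet no control came near a shRNA-labelled library in either gene. Kcnv2, a silent subunit that modifies potassium channels, fell by 4.45 ± 0.24 (11.4 and 0.517 CPM). Scn4b, a beta subunit of sodium channels, fell by 4.04 ± 0.35 (22 and 1.33 CPM). Mylk4, related to the kinases of myosin light chains, stood at 244, 233 and 223 CPM in the controls and 14.1, 16.4 and 17.9 CPM in the other group and fell by 3.85 ± 0.25. Transporters among the 12 largest falls were Slc22a3, which carries organic cations (-3.35 ± 0.31, 9.94 and 0.974 CPM), and Slc36a2, which carries small amino acids (-3.08 ± 0.20, 26.7 and 3.15 CPM). Cacna1s, the calcium channel of skeletal muscle, fell by 3.26 ± 0.19 (10.9 and 1.14 CPM). The other members of the 12 were Smco1 (-3.45 ± 0.24), Tmem82 (-3.07 ± 0.16), A530016L24Rik (-3.10 ± 0.14) and mt-Nd4l (-3.23 ± 0.46), whose 3 controls were far apart at 658, 462 and 239 CPM.

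**Figure D2:**
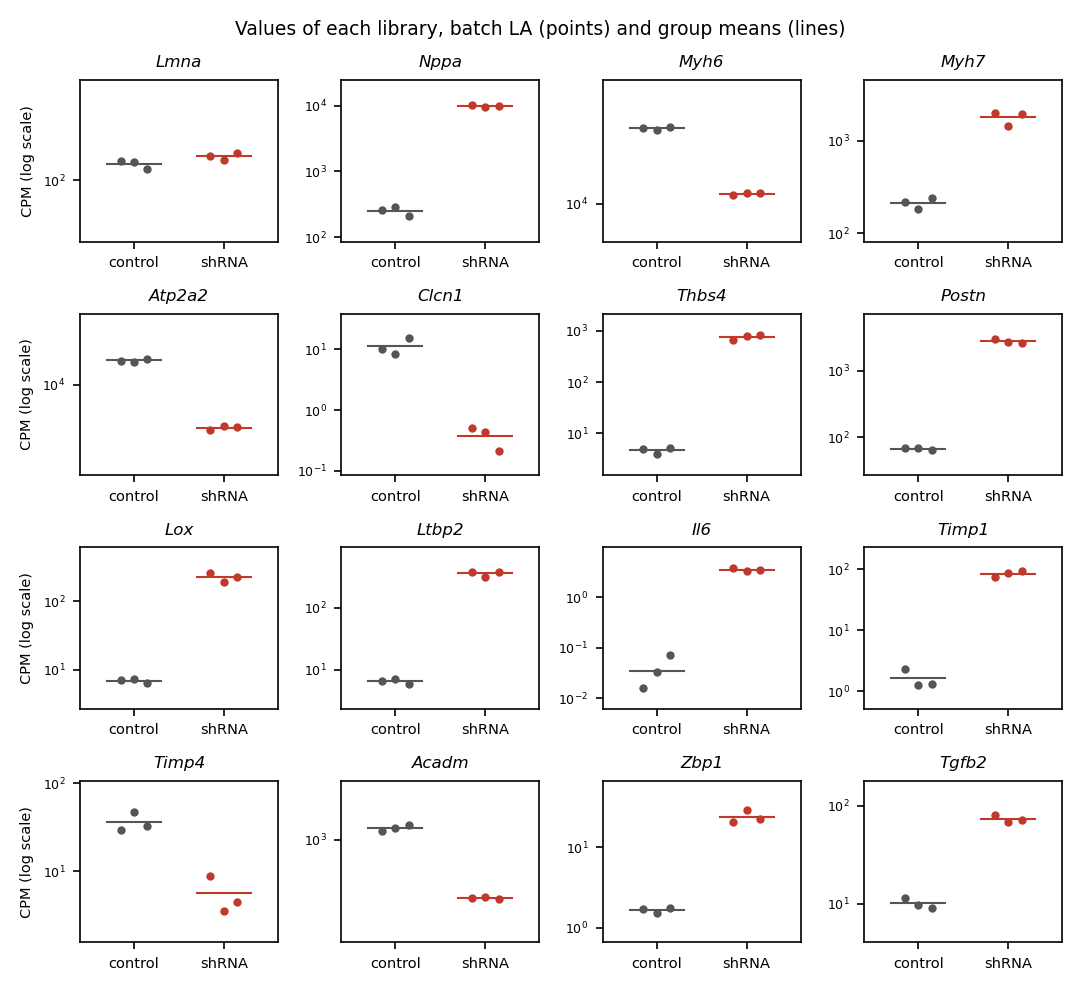
CPM of each library (points, log scale) and group means (lines) for 16 genes, controls in grey and hearts labelled Lmna shRNA in red; the first control of Il6 is at 0 and is drawn below the lowest value above 0. Points of the groups are separated by a clear gap in every gene but Lmna, whose 6 libraries lie close together at 112 to 130.3 CPM.

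The nuclear lamina and its partners moved little. Of 23 genes of this list 2 rose and 8 fell at a median of -0.07, which turned to 0.37 under library totals with 16 higher and 1 lower. Lmnb1, the lamin of cycling cells, rose by 0.65 ± 0.15, from 9.01, 9.99 and 7.18 to 11.6, 15.2 and 14.3 CPM, while Lmnb2 was at 0.10 ± 0.10 and its groups overlapped. The largest movements were at the inner nuclear membrane: Tmem43, a gene of inherited arrhythmogenic cardiomyopathy, rose by 1.28 ± 0.07, from 30.2, 29.3 and 27.9 to 71.7, 68.8 and 72.1 CPM, and Tmem201, which helps to place the nucleus, fell by 1.31 ± 0.07, from 124, 126 and 124 to 46.4, 52.4 and 52.2 CPM. Within either gene the libraries of a group lay close together and the groups were well apart. Of 5 genes of the LINC complex, which couples the lamina to the cytoskeleton, 4 fell slightly, with Sun1 at -0.37 ± 0.06, Sun2 at -0.41 ± 0.06, Syne1 at -0.43 ± 0.09 and Syne2 at -0.40 ± 0.08; under library totals they stood at 0.06, 0.03, 0.01 and 0.03. The fifth, Syne3, was not called (0.23 ± 0.21, 5.29 and 6.2 CPM). Of the enzymes that mature prelamin A, Fnta, a subunit of farnesyltransferase, fell by 0.48 ± 0.07 but was not called under library totals (-0.04), while the protease Zmpste24 (0.07 ± 0.07) and the methyltransferase Icmt (0.02 ± 0.05) were not called. Emd, which encodes emerin, was not called either (0.12 ± 0.09, 24.2 and 26.3 CPM).

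Cardiac hormones and genes of the fetal or stretched heart rose. Nppa, the precursor of atrial natriuretic peptide (ENSMUSG00000041616, chromosome 4, 148000722 to 148002079, mm10), stood at 258, 287 and 208 CPM in the controls and at 10058, 9344 and 9948 CPM in the shRNA-labelled hearts, a rise of 5.28 ± 0.40, and was the most abundant gene among all that rose. Nppb, the precursor of brain natriuretic peptide, rose by 2.32 ± 0.28, from 114, 134 and 111 to 698, 559.8 and 538 CPM. Every shRNA-labelled heart exceeded every control in both. The rest of the natriuretic system did not follow the ligands, and of its 8 tested genes 4 rose and 4 fell. The clearance receptor Npr3 rose (1.26 ± 0.35), and the guanylyl cyclase receptors Npr1 (-0.34 ± 0.07) and Npr2 (-0.28 ± 0.06) fell slightly. Under library totals Npr1 and Npr2 were at 0.09 and 0.15, and Npr2 was called higher. Corin, the protease that activates the Nppa precursor, fell by 1.26 ± 0.10 (251 and 105 CPM), and Mme, the neprilysin that degrades the peptides, fell by 2.15 ± 0.15 (12.8 and 2.88 CPM). Of 18 fetal and stress genes 15 rose and 1 fell, with a median of 2.51. This list, like the others, was chosen with earlier results of these data known, and it holds Sprr1a. Its count and median may therefore partly restate that choice. Ankrd1, a stretch-responsive repeat protein of the sarcomere, held 864, 1004 and 1007 CPM in the controls and 5920.4, 5519 and 5359 CPM in the other group (2.55 ± 0.20). Fhl1, a LIM protein that binds titin, rose by 2.48 ± 0.09 (122 and 680.3 CPM), Nmrk2, a nicotinamide riboside kinase, by 5.32 ± 0.31 (4.56 and 182 CPM), and Uchl1, a deubiquitinating enzyme, by 3.39 ± 0.20 (6.59 and 68.8 CPM). Tnni1, the troponin I of the fetal heart, rose by 3.74 ± 0.42 (0.191 and 2.58 CPM) at a low level. Ces1d was the list's only fall, and Csrp3 (0.03 ± 0.07) and Xirp1 (0.09 ± 0.12) were not called, with overlapping groups.

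Genes of the contractile filaments mostly fell. Of 23 genes of the thick and thin filaments and titin 19 fell and 2 rose, at a median of -0.75; under library totals 12 fell and 5 rose at a median of -0.31. Myh6, the fast adult myosin heavy chain of the mouse ventricle, held 33804, 32678 and 34579 CPM in the controls and 11494, 11959.6 and 11809 CPM in the shRNA-labelled hearts and fell by 1.52 ± 0.12. Myh7, the slow heavy chain that prevails before birth, moved the other way, from 218, 182 and 239 to 2019.5, 1447 and 1964 CPM (3.09 ± 0.35). The second shRNA-labelled library was the lowest of its group for Myh7 and still lay far above each control. Cardiac troponin I, Tnni3, fell by 1.73 ± 0.08, from 3551, 3543 and 4014 to 1067, 1198 and 1076 CPM. The regulatory light chain Myl2 fell by 1.42 ± 0.06 (7193 and 2694 CPM), the essential light chain Myl3 by 1.17 ± 0.07 (4864 and 2158 CPM), and Mylk3, the cardiac myosin light chain kinase, by 1.14 ± 0.06 (792 and 359.7 CPM). Cardiac actin Actc1 (-0.30 ± 0.05), troponin T Tnnt2 (-0.41 ± 0.09) and Mybpc3 (-0.42 ± 0.07) fell least. Under library totals they were at 0.14, 0.03 and 0.02, and Actc1 was called higher. The rises on the list were the tropomyosins Tpm2 (1.09 ± 0.11) and Tpm3 (0.89 ± 0.06).

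Structures that anchor the filaments divided. Of 30 genes of the Z-disc, costamere and intercalated disc 10 rose and 17 fell, at a median of -0.21 that was 0.22 under library totals, with 18 higher and 10 lower. Of 13 Z-disc proteins 6 rose and 6 fell. Rises were seen in Pdlim3, by 2.02 ± 0.16 (9.6 and 39.1 CPM), Synpo2l, by 1.41 ± 0.11 (163 and 434 CPM), the filamin Flnc, by 0.97 ± 0.11 (458 and 897 CPM), the intermediate filament desmin, Des, by 0.89 ± 0.09 (1898 and 3514 CPM) and its chaperone Cryab, by 0.50 ± 0.07 (1159 and 1640.5 CPM). Others of the same structure fell, with Myot at -1.95 ± 0.17 (22.6 and 5.84 CPM), Tcap, the cap of titin, at -1.41 ± 0.22 (728 and 274 CPM), and Myoz2, which holds calcineurin at the Z-disc, at -0.82 ± 0.05 (879.7 and 499.7 CPM). In the disc that joins cells, the desmosomal cadherins Dsg2 and Dsc2 fell by 1.12 ± 0.09 and 1.33 ± 0.09. Gja1, the main gap junction protein of ventricular muscle, fell by 0.40 ± 0.12, from 724, 696 and 678 to 552, 530.1 and 505 CPM, and was at 0.03 under library totals, whereas Gja5, the gap junction protein of atria and conduction fibres, rose by 0.62 ± 0.13, from 6.91, 7.54 and 9.63 to 13.9, 10.9 and 12.1 CPM.

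Calcium handling in the sarcoplasmic reticulum, the store that triggers each beat, was lower in 16 of 26 genes and higher in 6 (median -0.57), against 13 lower and 10 higher under library totals. The calcium pump Atp2a2 held 14841, 14711 and 15466 CPM in the controls and 4652, 5021 and 4919.8 CPM in the other group and fell by 1.63 ± 0.10. Pln, its inhibitor, fell nearly in step, by 1.70 ± 0.07, from 7118, 7179 and 7196 to 2309, 2188 and 2140.3 CPM. Both genes of this pair kept their groups wide apart. Hrc, a calcium-binding protein of the store's lumen, fell by 2.50 ± 0.15 (1239 and 219 CPM), the release channel Ryr2 by 1.03 ± 0.07 (1514 and 739 CPM), and Jph2, which holds the store against the surface membrane, by 1.00 ± 0.06 (506 and 253 CPM). Among the rises, at low levels, Fkbp1b, a stabiliser of the release channel, rose by 2.49 ± 0.25 (0.412 and 2.33 CPM), and Cacna1d, a calcium channel of pacemaker cells, by 1.05 ± 0.14 (2.39 and 4.96 CPM). Cardiac calsequestrin, Casq2, fell by 0.67 ± 0.07 (1087 and 683 CPM). The exchanger Slc8a1 was not called (-0.04 ± 0.17, 122 and 118 CPM).

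Genes of ion channels fell in 27 of 35 cases, 4 being higher, with a median of -1.07; under library totals 26 were lower and 6 higher. Of 21 potassium channel genes 19 fell. They included Kcnip2, the subunit that sets the transient outward current (-2.77 ± 0.15, 235 and 34.6 CPM), Kcnj3, a channel opened by acetylcholine (-2.73 ± 0.15, 84.6 and 12.8 CPM), and both parts of the ATP-sensitive channel, the pore Kcnj11 (-1.54 ± 0.06, 159.7 and 54.9 CPM) and the receptor Abcc9 (-1.72 ± 0.09, 416 and 126 CPM). Kcne1, a subunit of the slow delayed rectifier, was the potassium channel gene that rose, by 1.28 ± 0.16, from 8.72, 6.7 and 5.84 to 15.9, 19.3 and 16.4 CPM. Of 7 sodium channel genes 2 rose and 3 fell, with the beta subunit Scn4b lowest. Hcn4, the pacemaker channel of the sinus node, fell by 1.80 ± 0.16 (15.9 and 4.54 CPM). Over the whole list the groups did not overlap in 32 of 35 genes, beside 67.8% of all genes tested.

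Receptors of the autonomic nervous system mostly fell, 5 of 7 being lower and 1 higher. Of 27 genes of adrenergic and muscarinic signalling 8 rose and 14 fell at a median of -0.19, which was 0.25 under library totals with 15 higher and 10 lower. The beta-1 receptor Adrb1 fell by 0.61 ± 0.11 (21.7 and 14.2 CPM) but was not called under library totals (-0.17), the alpha-1 receptors Adra1a and Adra1b by 2.36 ± 0.20 and 1.61 ± 0.15, and the muscarinic receptor Chrm2 by 0.98 ± 0.08 (163 and 82.2 CPM). Adrb3 rose by 3.97 ± 0.73, though only from 0.0955, 0.0327 and 0.0721 to 1.3, 0.928 and 1.07 CPM. Of 10 genes that damp these signals 3 rose and 5 fell. The rises were the receptor kinase Grk5, by 1.40 ± 0.09 (30.9 and 81.5 CPM), and the arrestins Arrb1 and Arrb2, by 1.01 ± 0.09 and 1.28 ± 0.09. Among vasoactive systems Ace, which makes angiotensin II, rose by 1.97 ± 0.10, from 83.5, 85.7 and 92 to 367, 315 and 338 CPM. The angiotensin receptor Agtr1a fell by 1.40 ± 0.12 (37.6 and 14.2 CPM), and apelin, Apln, a peptide that strengthens contraction, fell by 2.15 ± 0.17 (28.6 and 6.44 CPM). Of 12 genes of the renin, endothelin and apelin systems 3 rose and 6 fell (median -0.32, or 0.11 under library totals).

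Genes of the extracellular matrix rose in nearly every class. Collagen genes rose in 25 of 28 cases, 1 being lower (median 1.78), matrix glycoproteins and proteoglycans in 37 of 42 with 2 lower (median 2.10), and genes of collagen maturation and crosslinking in 17 of 20 with 0 lower (median 1.25), beside 32.4% of all genes tested that rose. Fibrillar collagen III, Col3a1, held 566, 516 and 482 CPM in the controls and 3952, 4406 and 4461 CPM in the shRNA-labelled hearts (3.03 ± 0.20). Collagen I rose in both chains, Col1a1 by 3.12 ± 0.20 (185 and 1607 CPM) and Col1a2 by 3.13 ± 0.16 (216 and 1886 CPM). All 8 basement membrane collagens rose, by 0.72 to 1.83, with a median of 1.03. Fibril-associated Col12a1 rose by 5.59 ± 0.32, from 2.13, 1.73 and 1.51 to 86.7, 83.8 and 90 CPM. Col11a1, a collagen of cartilage, had 3 counts over the controls and 329 over the other group, a ratio of 77.2 (95% counting interval 26.2 to 376). Col6a6 fell by 1.62 ± 0.27 (10.6 and 3.44 CPM) while Col6a1, Col6a2 and Col6a3 of the same type rose by 1.55 ± 0.10, 1.73 ± 0.12 and 1.31 ± 0.19.

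Among the other matrix proteins Postn, the periostin of activated fibroblasts, rose by 5.37 ± 0.24, from 67.9, 68.7 and 65.1 to 2998, 2718 and 2645 CPM. Cilp, a matrix protein of cartilage and scar, rose by 5.39 ± 0.34, from 20.3, 26.7 and 22 to 942, 979 and 966 CPM, and Ltbp2, a component of elastic fibres, by 5.73 ± 0.31, from 6.78, 7.22 and 5.88 to 374, 308 and 377.2 CPM. All 3 genes were low in every control. Fn1, fibronectin, rose by 3.04 ± 0.17 (91.1 and 747 CPM) and Eln, elastin, by 2.06 ± 0.25 (115 and 478 CPM). Laminins divided, and of 6 genes 3 rose and 2 fell (median 0.13). Lamc1 rose by 0.91 ± 0.07, Lama2 by 0.52 ± 0.06 and Lama4 by 0.27 ± 0.08, while Lama5 fell by 0.76 ± 0.10 and Lamb2 by 0.22 ± 0.06. Under library totals Lamb2 was called higher (0.22). Of 3 large proteoglycans Vcan, versican, rose by 2.67 ± 0.20 (22 and 140.0 CPM), and the basement membrane proteoglycan Hspg2 (0.14 ± 0.08) and Acan (0.99 ± 0.62) were not called. All 6 crosslinking enzymes rose. Lox, lysyl oxidase, held 6.97, 7.22 and 6.46 CPM in the controls and 258, 195 and 224 CPM in the other group (5.03 ± 0.24), and Loxl3 rose by 3.47 ± 0.16 (7.91 and 87.7 CPM). Of the prolyl hydroxylases that steady the collagen helix, P4ha3 rose by 4.32 ± 0.41 (0.188 and 3.85 CPM) and P4ha1 by 0.96 ± 0.09 (55.8 and 109 CPM), and P4ha2 was not called (-0.12 ± 0.07).

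Matrix proteases and inhibitors rose in 22 of 31 genes and fell in 4, at a median of 0.89. Timp1, an inhibitor of metalloproteinases, rose by 5.68 ± 0.24, from 2.35, 1.27 and 1.3 to 75, 87.2 and 92.8 CPM. Timp4, the inhibitor typical of heart muscle, fell by 2.70 ± 0.29, from 29.7, 47 and 33 to 8.8, 3.55 and 4.52 CPM. These members of 1 family moved in opposite directions. The gelatinase Mmp2 rose by 1.86 ± 0.12 (105 and 384 CPM) and its activator Mmp14 by 1.49 ± 0.18 (36.6 and 102 CPM). The aggrecanase Adamts8 rose by 3.43 ± 0.19 (1.44 and 15.5 CPM). Mmp15 fell by 1.39 ± 0.08 (157 and 59.8 CPM), and Mmp9 was not called (0.00 ± 0.39, 0.553 and 0.558 CPM).

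**Figure D3:**
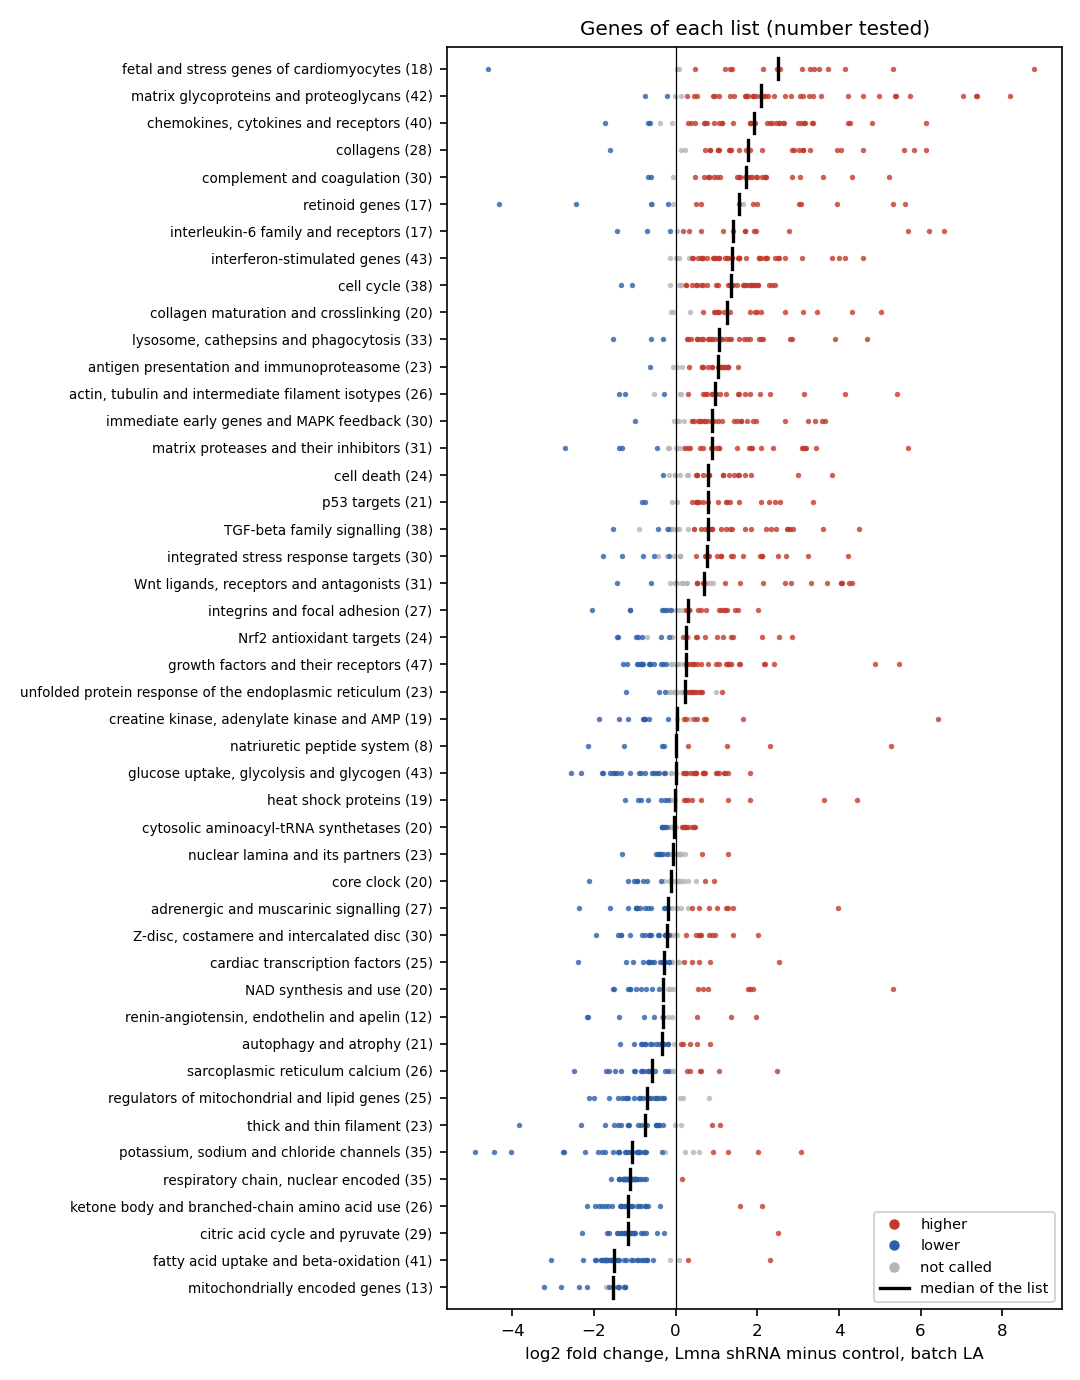
Log2 fold changes of the members of 46 gene lists (x axis), 1 line a list, ordered by the median (black bar), with higher genes in red, lower in blue and genes not called in grey. Lists of collagens, matrix glycoproteins and proteoglycans, chemokines and complement stand at medians of 1.72 to 2.10, and lists of mitochondrial metabolism at -1.53 to -1.13.

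In the TGF-beta family, whose ligands drive matrix production, 23 of 38 genes rose and 3 fell (median 0.78). Tgfb2 rose by 2.87 ± 0.14, from 11.5, 9.8 and 8.98 to 80.8, 68.2 and 72.2 CPM, and Tgfb3 by 2.34 ± 0.12, from 23.2, 25.7 and 22.2 to 122.7, 115 and 122 CPM, while Tgfb1 rose least of the 3 (0.89 ± 0.07, 29.6 and 55 CPM). The relative Gdf6 rose by 4.48 ± 0.18, from 1.18, 0.784 and 1.3 to 28.2, 23.8 and 20.8 CPM, and the activin subunit Inhba by 2.72 ± 0.19 (1.62 and 10.7 CPM). Of 10 receptors 3 rose and 2 fell, with Tgfbr1 and Tgfbr2 higher by 1.24 ± 0.09 and 1.12 ± 0.07 and Bmpr2 not called (0.08 ± 0.06). Of the target genes Ctgf, a matricellular protein, rose by 3.60 ± 0.22, from 76.2, 71.7 and 64.5 to 1062, 759.5 and 753 CPM. The extracellular antagonists Fstl1 and Fstl3 rose by 2.80 ± 0.15 and 2.75 ± 0.16, and the intracellular brake Smad7 by 0.79 ± 0.12 (16.2 and 28.1 CPM). Bmp7 fell by 1.54 ± 0.30 (2.03 and 0.698 CPM).

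Most secreted antagonists of Wnt rose. Of 31 genes of the Wnt list 16 rose and 2 fell (median 0.70), and 5 of the 8 antagonists were among the rises. Dkk3 rose by 4.32 ± 0.27, from 2.74, 3.1 and 2.85 to 57.3, 55.6 and 61.4 CPM, Frzb by 4.06 ± 0.21, from 5.86, 4.77 and 4.26 to 78.3, 81.7 and 89 CPM, and Sfrp1 by 3.70 ± 0.17, from 15.6, 14.2 and 17.3 to 204, 186 and 221 CPM. Sfrp2 rose by 4.05 ± 0.25 (3.08 and 51.3 CPM). No antagonist fell, and Sfrp5, Dkk2 and Wif1 were not called. Of 6 targets 4 rose, among them Nkd2 at 4.07 ± 0.16 (1.75 and 29.5 CPM), Wisp2 at 4.25 ± 0.27 (6.55 and 124 CPM) and Axin2 at 0.68 ± 0.12 (4.45 and 7.11 CPM). Among ligands Wnt5a fell by 1.44 ± 0.11, from 16.9, 18.9 and 16.6 to 6.18, 5.5 and 7.63 CPM, and among receptors Fzd2 rose (2.13 ± 0.16) and Fzd4 fell (-0.61 ± 0.07).

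In the interleukin-6 family 13 of 17 genes rose and 3 fell (median 1.41). Il6 itself had 3 counts over the 3 controls and 449 over the shRNA-labelled hearts, a ratio of 105 (95% counting interval 35.8 to 513). Lif rose by 2.77 ± 0.30 (0.62 and 4.31 CPM). Ctf1, cardiotrophin, was the ligand that fell (-1.44 ± 0.16, 4.76 and 1.75 CPM). Receptors divided, with Osmr, the oncostatin M receptor, higher by 1.41 ± 0.08 (23.9 and 63.4 CPM) and Lifr lower by 0.70 ± 0.08 (66.4 and 40.9 CPM). The feedback inhibitor Socs3 rose by 1.70 ± 0.16 (6.76 and 21.9 CPM).

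Growth factors were mixed, with 21 of 47 genes higher and 16 lower (median 0.25), beside 32.4% and 29.0% of all genes tested. The insulin-like growth factor Igf1 rose by 2.18 ± 0.19 (22.2 and 100.4 CPM) and its binding protein Igfbp7 by 2.16 ± 0.09 (143 and 640.1 CPM). Ereg, an EGF receptor ligand, rose by 5.48 ± 0.50, from 0.191, 0 and 0.0361 to 3.73, 3.67 and 3.5 CPM. Fgf23, a phosphate-regulating hormone usually made by bone, had 1 count over the controls and 55 over the shRNA-labelled hearts, a ratio of 38.7 (95% counting interval 6.66 to 1557). Angiogenic genes fell in 9 of 13 cases. Vegfa fell by 0.93 ± 0.06, from 422, 395 and 443 to 229.6, 219 and 215 CPM, Vegfb by 1.19 ± 0.07 (189.8 and 83.3 CPM), and the receptor Kdr by 0.95 ± 0.12 (281 and 145 CPM). Integrins and focal adhesion genes rose in 14 of 27 cases, 7 being lower (median 0.31), with Itga11, a collagen receptor of fibroblasts, at 2.02 ± 0.20 (5.45 and 22.1 CPM) and Itgb6, an activator of latent TGF-beta, at -2.05 ± 0.26 (22.1 and 5.34 CPM).

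Oxidative metabolism fell nearly as a whole. Genes of fatty acid uptake and beta-oxidation fell in 37 of 41 cases, 2 being higher (median -1.52), the citric acid cycle and pyruvate use in 28 of 29 with 1 higher (median -1.17), ketone and branched-chain amino acid use in 24 of 26 with 2 higher (median -1.16), and nuclear genes of the respiratory chain in 34 of 35 with 1 higher (median -1.13). All genes tested fell in 29.0% of cases. Acadm, the medium-chain acyl-CoA dehydrogenase, held 1158, 1218 and 1301 CPM in the controls and 363, 372 and 360.2 CPM in the shRNA-labelled hearts and fell by 1.75 ± 0.06. All 15 enzymes of the beta-oxidation spiral fell, by 0.85 to 1.96 on the log2 scale. Acsl1, which activates fatty acids, fell by 1.78 ± 0.09 (1015 and 295 CPM), the inner-membrane carnitine transferase Cpt2 by 1.70 ± 0.10 (235 and 72.3 CPM), and Dgat2, which makes triglyceride, by 2.28 ± 0.14 (354 and 73.2 CPM). The liver-type transferase Cpt1a was not called (0.08 ± 0.08, 70.9 and 75 CPM), and Slc27a6, a fatty acid transporter at a low level, rose (2.30 ± 0.42, 0.228 and 1.12 CPM).

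Branched-chain amino acid breakdown was led by Ppm1k, the phosphatase that switches the pathway on, which fell by 2.18 ± 0.09, from 113, 116 and 122 to 27.1, 25.2 and 25.2 CPM. Ivd, in leucine breakdown, fell by 1.97 ± 0.08 (466 and 119 CPM). The rises on that list were Slc7a5, which imports large neutral amino acids (1.58 ± 0.12, 5.7 and 17.1 CPM), and Bcat1, the cytosolic aminotransferase (2.12 ± 0.25, 1.06 and 4.62 CPM). In the citric acid cycle all 16 genes fell, with Idh2 at -1.63 ± 0.09 (1666 and 539.7 CPM) and citrate synthase Cs at -1.34 ± 0.07 (1836 and 725 CPM). Pdk3, a kinase that shuts pyruvate dehydrogenase, was the exception among pyruvate genes, rising by 2.50 ± 0.14 from 2.35, 2.65 and 1.8 to 14.6, 12.3 and 11.9 CPM, while Pdp2, the phosphatase that opens it, fell by 2.30 ± 0.14 (36.7 and 7.44 CPM). The more abundant kinases Pdk1, Pdk2 and Pdk4 fell. By FPKM, a measure per kilobase of gene length, Pdk3 made up 0.219% of these kinases in the controls and 2.95% in the shRNA-labelled hearts. In the respiratory chain all 11 genes of complex I fell by 1.03 to 1.39, while Slc25a5, an adenine nucleotide translocase of non-muscle tissue, was called higher (0.16 ± 0.07, 264 and 295 CPM) on groups that overlapped, a call that held in only 4 of 16 alternatives. DESeq2 did not make it (0.15), and it ended without the first control (0.13), the third control (0.14), the first shRNA-labelled heart (0.11) or the second (0.15). Of 13 mitochondrially encoded genes 12 fell (median -1.53). mt-Co1, the most abundant gene in these hearts, held 111981, 113162 and 112711 CPM in the controls and 46788, 48446 and 46536 CPM in the other group and fell by 1.25 ± 0.07. Nuclear copies of such genes make single values uncertain.

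Transcriptional regulators of these pathways fell in 21 of 25 cases, 0 being higher (median -0.70), or in 15 with 3 higher under library totals. Ppargc1a, the coactivator of mitochondrial biogenesis, fell by 1.32 ± 0.11, from 106, 112 and 114 to 47.4, 41.8 and 43.5 CPM. Perm1, a muscle coactivator of the same genes, fell by 1.64 ± 0.08 (362 and 116 CPM), the fatty acid receptor Ppara by 1.42 ± 0.18 (17.6 and 6.58 CPM), Klf15 by 2.01 ± 0.18 (44.5 and 11 CPM), and Rxrg, a partner receptor, by 2.12 ± 0.14, from 55.8, 60.2 and 62.6 to 12.4, 14.8 and 13.8 CPM. The estrogen-related receptors Esrra, Esrrb and Esrrg fell by 0.90 ± 0.06, 1.19 ± 0.12 and 1.03 ± 0.07. The letters TNAAGGTCA, one form of their element, stood in 0 of 35 promoters of the fatty acid list and in 1.28% of all 32851 promoters searched, where a promoter is 250 bases before to 50 after a start site. With letters this rare, 35 promoters are too few for the 0 to show a lack.

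Glucose metabolism divided into 20 higher and 19 lower of 43 genes (median 0.00). The insulin-responsive transporter Slc2a4 fell by 1.81 ± 0.10 (391 and 112 CPM), while the basal transporter Slc2a1 rose by 1.05 ± 0.15, from 16.4, 13.3 and 15 to 35.4, 26.6 and 30.6 CPM. The first step of the pentose phosphate pathway, G6pdx, rose by 1.18 ± 0.07 (7.73 and 17.5 CPM). Within glycolysis isozymes of 1 step moved in opposite directions, and 24 whole families of related enzymes, channels and contractile proteins were examined, chosen after their values were seen. In 22 of the 24 a member rose while another fell. Under the alternatives that use counts 19 to 22 families did so, the fewest without the first shRNA-labelled heart, and 17 did by limma on FPKM; these counts were added after the values were seen. The shares that follow are of the summed FPKM of a family, a measure per kilobase of gene length, so that members can be compared. Ldha made up 16.3% ± 0.848 (SD, n = 3) of lactate dehydrogenase in the controls and 41.8% ± 1.79 in the shRNA-labelled hearts, as Ldha rose (0.44 ± 0.06) and Ldhb fell (-1.44 ± 0.06). Pfkp, the platelet type of phosphofructokinase, went from 1.8% ± 0.112 to 10.4% ± 0.633 as it rose by 1.28 ± 0.10 and the muscle type Pfkm fell by 1.48 ± 0.07. Eno1 went from 3.3% ± 0.133 of the enolases to 12.2% ± 0.95, Pgam1 from 4.19% ± 0.296 of the phosphoglycerate mutases to 14% ± 1.17, and Hk1 from 30% ± 2.28 of the hexokinases to 45.6% ± 3.66. In these 5 families the type most abundant in the controls lost share.

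Shares also moved in families outside glycolysis, not always away from the type most abundant in the controls. Slc25a5 went from 7.08% ± 0.363 to 18.2% ± 0.355 of the adenine nucleotide translocases, and Cox6a1, the liver type, from 5.89% ± 0.238 to 14.3% ± 1.38 of cytochrome oxidase subunit 6a. Cox6a1 was called higher (0.21 ± 0.07) on groups that overlapped, and the call ended without the third control (0.15), the first shRNA-labelled heart (0.15) or the second (0.19). The brain type of creatine kinase, Ckb, went from 0.969% ± 0.0686 to 4.53% ± 0.329, and Ckmt1, a mitochondrial type not usual in muscle, had 2 counts over the controls and 284 over the shRNA-labelled hearts, a ratio of 100 (95% counting interval 27.4 to 829). Ckmt2, the mitochondrial type of heart and skeletal muscle, gained share, from 66.9% ± 0.151 to 71.3% ± 2.31, and so did Mylk3 among the myosin light chain kinases, from 84.3% ± 0.622 to 91.9% ± 1.2, though both genes fell. Myh7 went from 0.488% ± 0.0518 to 10.7% ± 1.84 of the cardiac myosin heavy chains, and Myh6 kept 89.1% ± 1.83. Timp1 went from 2.79% ± 1.01 to 46.3% ± 2.82 of the metalloproteinase inhibitors, and Timp4 from 9.34% ± 2.09 to 0.468% ± 0.255. The alpha-1 adrenergic receptors and cytochrome oxidase subunit 8 were the families in which no member rose.

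**Figure D4:**
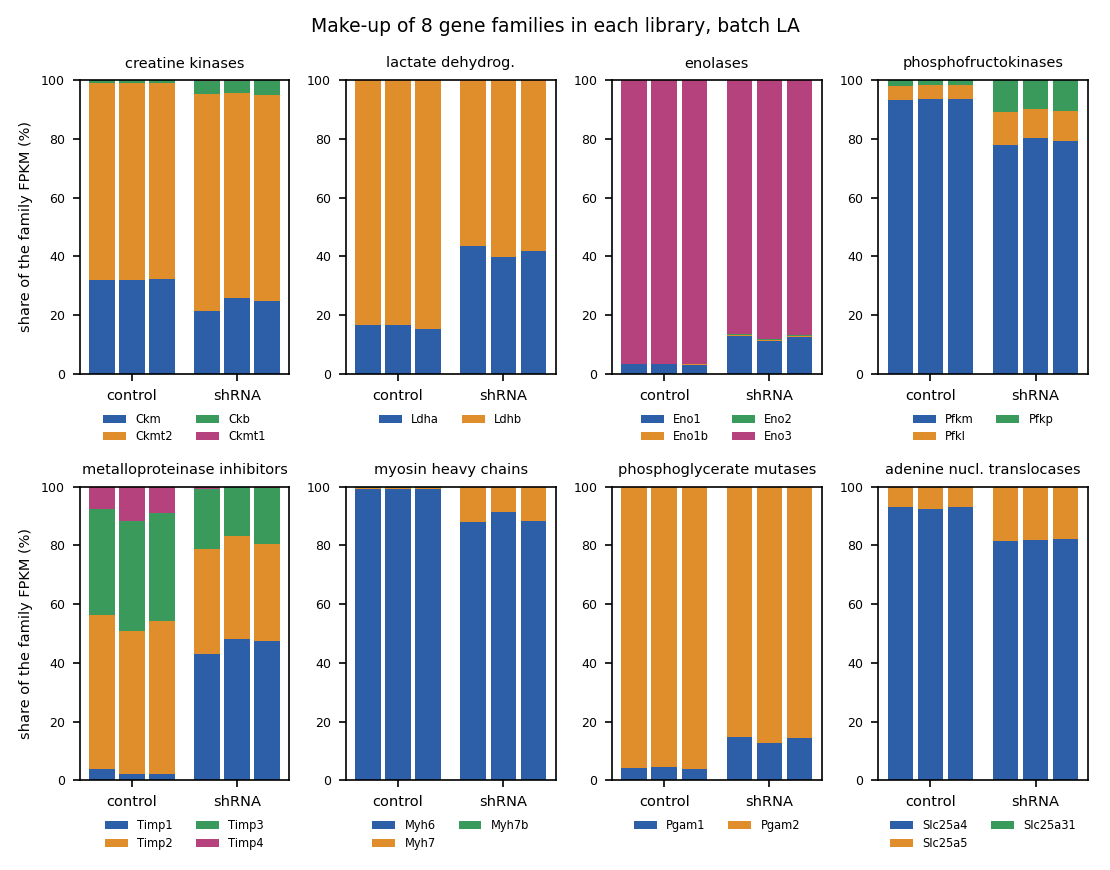
Share of the summed FPKM of 8 gene families held by each tested member (stacked bars, percent), with 1 bar for each of 3 controls and 3 shRNA-labelled hearts. Ldha grows from 16.3% to 41.8% of its family and Timp1 from 2.79% to 46.3%, and bars of the same group are alike.

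Smaller metabolic systems had both directions. Of 19 genes of creatine, adenylate and AMP kinase metabolism 8 rose and 9 fell (median 0.04). Of 20 genes of NAD synthesis and use 7 rose and 10 fell (median -0.30, or 0.13 under library totals); Nampt, the main salvage enzyme, fell by 1.16 ± 0.09 (215 and 96.2 CPM), in contrast to the rise of Nmrk2. Retinoid genes rose in 10 of 17 cases, 4 being lower (median 1.55). Aldh1a2, which makes retinoic acid, rose by 3.08 ± 0.24, from 5.09, 5.32 and 6.38 to 38.1, 56.7 and 46.9 CPM. Lrat, which stores retinol as ester, fell by 4.34 ± 0.53, from 2, 2.19 and 1.73 to 0.0708, 0.0952 and 0.116 CPM. Of the enzymes that break retinoic acid down, Cyp26a1 rose by 5.33 ± 0.56 (0.0668 and 2.82 CPM) and Cyp26b1 fell by 2.44 ± 0.77, with 18.5, 19.8 and 13 CPM in the controls and 1.2, 2.52 and 5.7 CPM in the other group.

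Stress programmes were raised in part. Targets of the integrated stress response, in which the factor ATF4 is translated under amino acid or mitochondrial stress, rose in 19 of 30 cases, 5 being lower (median 0.76). Atf3 held 3.12, 3.59 and 4.15 CPM in the controls and 37, 37.8 and 28.5 CPM in the shRNA-labelled hearts (3.25 ± 0.23). Gdf15, a secreted stress cytokine, rose by 4.21 ± 0.24, from 0.859, 0.719 and 1.15 to 15.2, 17.1 and 18.3 CPM, and Nupr1, a small chromatin protein, by 2.71 ± 0.17, from 5.6, 4.25 and 4.51 to 34.9, 27.8 and 31.4 CPM. The serine pathway enzymes Psat1 and Phgdh rose by 2.51 ± 0.13 and 2.07 ± 0.27, and mitochondrial Mthfd2 by 1.64 ± 0.14 (4.56 and 14.2 CPM). Chac1 (-0.44 ± 0.20) and Ddit4 (-0.21 ± 0.22) were not called, and Cth, in cysteine synthesis, fell by 1.79 ± 0.28 (1.64 and 0.469 CPM). Cytosolic aminoacyl-tRNA synthetases, which charge tRNAs and are known ATF4 targets in other cells, moved little: 9 of 20 rose and 6 fell (median -0.04), but 17 rose and 0 fell under library totals (median 0.40). The letters TGATGNAA, an element read by ATF4 with its partners, stood on either strand in 8 of 32 promoters of the stress response list (25%) in 5 of 12 promoters of the synthetases (41.7%), and in 3.97% of all 32851 promoters. The promoters of Nupr1 (chr7:126625421-126625720, minus strand) and Atf3 (chr1:191183284-191183583, minus strand), from RefSeq on GRCm38.p6, are shown 5′ to 3′ because both genes rose and hold 1 match each, given in capitals and read here on the opposite strand. A match describes letters and not a binding site.
Nupr1: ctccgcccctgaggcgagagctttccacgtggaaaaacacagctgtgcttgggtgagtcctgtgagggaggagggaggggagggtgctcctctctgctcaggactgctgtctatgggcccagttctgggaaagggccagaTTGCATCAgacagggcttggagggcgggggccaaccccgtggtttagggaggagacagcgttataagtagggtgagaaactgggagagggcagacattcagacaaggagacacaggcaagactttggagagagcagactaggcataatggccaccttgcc
Atf3: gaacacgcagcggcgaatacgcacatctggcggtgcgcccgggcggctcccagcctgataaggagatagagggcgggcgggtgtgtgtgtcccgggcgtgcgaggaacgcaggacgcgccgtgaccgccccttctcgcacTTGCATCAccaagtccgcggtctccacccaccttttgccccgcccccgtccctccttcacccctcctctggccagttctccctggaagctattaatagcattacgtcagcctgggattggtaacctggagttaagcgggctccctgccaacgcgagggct

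Other stress programmes were uneven. In the unfolded protein response, set off in the endoplasmic reticulum, 11 of 23 genes were higher and 3 lower (median 0.23); Edem1, which clears misfolded glycoproteins, rose by 1.14 ± 0.07 (18.3 and 40.5 CPM), and Herpud1, of the same clearance route, fell by 1.22 ± 0.15 (132 and 56.8 CPM). The chaperone Hspa5 fell by 0.41 ± 0.12 (799 and 599 CPM) and was at 0.02 under library totals. Heat shock proteins differed by compartment, with 6 of 9 cytosolic members higher and 1 lower. Of 19 genes 9 rose and 7 fell (median -0.01, or 0.43 with 14 higher and 4 lower under library totals), and the 4 mitochondrial chaperones fell, with Hspd1 at -1.24 ± 0.07 (503 and 212 CPM). Cytosolic Hsp90aa1 rose by 1.28 ± 0.11 (155 and 376 CPM), the small protein Hspb1 by 1.83 ± 0.11, from 152, 156 and 159 to 645, 524 and 489 CPM, and Hspa1b by 4.44 ± 0.23, from 1.18, 1.14 and 1.77 to 31.6, 28.3 and 28.4 CPM; reads of Hspa1b and its near-identical copy Hspa1a (3.63 ± 0.24) could be shared between them. The heat shock element GAANNTTC stood in 11 of 21 promoters of this list (52.4%) and in 7.86% of all. The promoter of Hspa1b (chr17:34959189-34959488, minus strand, RefSeq, GRCm38.p6), the largest rise on the list, holds 1 match, shown in capitals.
Hspa1b: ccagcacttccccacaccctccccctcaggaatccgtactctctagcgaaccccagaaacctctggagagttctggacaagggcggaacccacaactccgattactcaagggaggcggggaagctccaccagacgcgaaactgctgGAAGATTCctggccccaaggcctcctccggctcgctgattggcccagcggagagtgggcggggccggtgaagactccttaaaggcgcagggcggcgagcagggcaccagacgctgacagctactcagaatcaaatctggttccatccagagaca

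Targets of p53 rose in 17 of 21 cases, 2 being lower (median 0.80), where 32.4% of all genes tested rose and 29.0% fell. Cdkn1a, an inhibitor of the cell cycle, rose by 2.44 ± 0.22, from 32.1, 37.1 and 26.5 to 182, 176 and 162 CPM, and Phlda3, a brake on survival signalling, by 2.55 ± 0.09, from 13.6, 13.4 and 11.4 to 75.7, 76.9 and 73.5 CPM. Eda2r, a death receptor, rose by 2.08 ± 0.13 (5.39 and 22.9 CPM) and Pmaip1, a killer of the Bcl2 family, by 3.36 ± 0.26 (0.428 and 4.39 CPM), while the cyclin Ccng1 fell by 0.83 ± 0.07 (1076 and 606 CPM). Antioxidant targets of Nrf2 divided into 12 higher and 7 lower of 24 (median 0.26). Hmox1, which opens the haem ring, rose by 2.84 ± 0.10, from 8.44, 8.65 and 7.25 to 61, 59.1 and 54.4 CPM, and the secreted peroxidase Gpx3 by 2.53 ± 0.17 (123.2 and 711 CPM), while the mitochondrial enzymes Sod2 (-1.42 ± 0.07, 642 and 239 CPM) and Prdx3 (-0.97 ± 0.06, 278 and 142 CPM) fell. Immediate early genes and MAPK feedback genes rose in 24 of 30 cases, 1 being lower (median 0.90). Egr2 rose by 3.66 ± 0.29, from 0.7, 0.947 and 1.01 to 12.6, 11.9 and 9.02 CPM, Etv4 by 3.58 ± 0.27, from 0.573, 0.784 and 0.397 to 6.06, 8.47 and 6.72 CPM, and Myc by 1.42 ± 0.21 (4.22 and 11.3 CPM). Egr1 was not called (0.40 ± 0.46), with overlapping groups, and the phosphatase Dusp1 fell (-0.99 ± 0.30, 81.4 and 41 CPM), though not under library totals (-0.55, not called).

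Interferon-stimulated genes rose in 39 of 43 cases, 0 fell, and the median was 1.38, beside 32.4% of all genes tested that rose. Oas3, which senses double-stranded RNA, held 0.382, 0.392 and 0.649 CPM in the controls and 9.48, 12.7 and 11.9 CPM in the shRNA-labelled hearts (4.59 ± 0.25). Zbp1, a sensor of nucleic acids in the Z form, rose by 3.83 ± 0.18, from 1.72, 1.53 and 1.77 to 20.4, 28.6 and 22.4 CPM, and Mx1, an antiviral GTPase, by 3.99 ± 0.26, from 1.43, 1.27 and 0.83 to 15, 22.5 and 19.3 CPM. Ifit3 rose by 2.53 ± 0.14, from 15, 13.4 and 16.4 to 67.2, 107 and 84.6 CPM, and Isg15, a ubiquitin-like modifier, by 2.69 ± 0.17 (4.34 and 28.1 CPM). All 7 sensors and all 20 effectors on the list rose, with the smallest rise of an effector in Rsad2 (0.40 ± 0.13, 42.3 and 55.7 CPM), whose call ended without the second shRNA-labelled heart (0.22). Of the transcription factors Irf7 rose by 2.50 ± 0.12, from 21.2, 16.3 and 19.6 to 95.3, 119 and 109 CPM, and Irf1 was not called (0.01 ± 0.09, 31.1 and 31.3 CPM). Of genes induced chiefly by interferon gamma 8 of 11 rose at a median of 0.76, against a median of 2.04 in the effectors. Among them Cxcl10 rose by 4.16 ± 0.41 (0.557 and 9.84 CPM) and Cxcl9 was not called (-0.15 ± 0.25). The element GAAANNGAA stood on either strand in 20 of 33 promoters of the list (60.6%) and in 8.56% of all 32851. The promoters of Ifit3 (chr19:34583279-34583578, plus strand) and Oas3 (chr5:120777610-120777909, minus strand), from RefSeq on GRCm38.p6, show 3 matches on the opposite strand in Ifit3 and 2 overlapping matches in Oas3, each in capitals.
Ifit3: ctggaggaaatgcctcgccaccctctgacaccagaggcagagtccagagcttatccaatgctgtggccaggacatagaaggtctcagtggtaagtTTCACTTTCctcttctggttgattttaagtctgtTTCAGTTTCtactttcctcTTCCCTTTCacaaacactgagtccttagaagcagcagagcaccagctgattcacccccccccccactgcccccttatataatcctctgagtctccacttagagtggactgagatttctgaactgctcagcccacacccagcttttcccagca
Oas3: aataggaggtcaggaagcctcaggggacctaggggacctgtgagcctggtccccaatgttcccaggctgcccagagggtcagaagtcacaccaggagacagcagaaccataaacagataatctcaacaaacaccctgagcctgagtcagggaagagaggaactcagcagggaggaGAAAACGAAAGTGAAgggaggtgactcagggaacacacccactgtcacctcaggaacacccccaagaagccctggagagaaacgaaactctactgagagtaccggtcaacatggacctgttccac

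Antigen presentation rose with them, in 19 of 23 genes with 1 lower (median 1.03), beside 32.4% of all genes tested that rose. B2m, the light chain of class I molecules, rose by 1.53 ± 0.11, from 223, 204 and 241 to 586, 699 and 638 CPM, and H2-K1 by 1.22 ± 0.11 (179 and 416 CPM). All 6 class II genes rose by 0.9 to 1.28. Copies of H2-Q genes are much alike, and their single values are uncertain. Complement and coagulation genes rose in 26 of 30 cases, 2 being lower (median 1.72). C4b rose by 3.62 ± 0.27, from 11.6, 9.96 and 19.2 to 172, 150.5 and 178 CPM, C3 by 2.12 ± 0.26, from 88, 74.9 and 117 to 402, 376 and 442 CPM, and Cfb, of the alternative pathway, by 5.22 ± 0.44 (0.0453 and 1.79 CPM). Cd59a, which guards host cells from complement, fell by 0.61 ± 0.07 (78.9 and 51.5 CPM), and F3, tissue factor, fell by 0.69 ± 0.11 (21.5 and 13.3 CPM). Chemokines, cytokines and their receptors rose in 35 of 40 cases, 3 being lower (median 1.91). Ccl2, which recruits monocytes, rose by 2.52 ± 0.21, from 2.77, 1.73 and 2.02 to 10.7, 13.6 and 13.2 CPM, its receptor Ccr2 by 3.17 ± 0.20, from 4.17, 3.04 and 4.15 to 34.6, 32 and 35.3 CPM, and Ccl8 by 4.81 ± 0.29, from 0.35, 0.163 and 0.18 to 6.63, 6.81 and 6.56 CPM. Ccl11, which attracts eosinophils, fell by 1.73 ± 0.38 (1.02 and 0.306 CPM), and Cxcl12 fell by 0.62 ± 0.10 (232 and 151 CPM), a call that ended under library totals (-0.18). Il10 had 0 counts in the controls and 31 in the shRNA-labelled hearts, at least 7.27-fold higher against a floor of 3 counts over the group.

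Lysosome and phagocytosis genes rose in 30 of 33 cases, 3 being lower (median 1.06), where 32.4% of all genes tested rose and 29.0% fell. Ctss, the cathepsin of antigen-presenting cells, rose by 2.81 ± 0.10, from 27.2, 22.7 and 23.7 to 167, 179.8 and 169.8 CPM, Gpnmb by 3.90 ± 0.44, from 3.44, 0.98 and 0.974 to 29.1, 25.3 and 27.8 CPM, and Trem2, a lipid receptor of macrophages, by 2.84 ± 0.14 (2.25 and 16.2 CPM). Lpl, which releases fatty acids from lipoproteins and is abundant in heart muscle, was among the falls (-1.54 ± 0.08, 6814 and 2346 CPM). Autophagy and atrophy genes were lower in 15 of 21 cases and higher in 5 (median -0.34, or 0.10 under library totals). Sqstm1, an autophagy receptor, rose by 0.85 ± 0.08 (340.5 and 612 CPM). The ubiquitin ligases Trim63 (-1.03 ± 0.07, 247 and 121 CPM) and Fbxo32 (-0.74 ± 0.08, 193 and 116 CPM) fell, and Pink1, which marks damaged mitochondria, fell by 1.37 ± 0.08, from 587, 562 and 594 to 219, 231 and 225 CPM. Cell death genes rose in 17 of 24 cases, 1 being lower (median 0.80), with the inflammasome sensor Nlrp3 at 1.71 ± 0.25 (0.973 and 3.2 CPM) and the necroptosis effector Mlkl at 1.15 ± 0.13 (4.37 and 9.69 CPM).

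Cell cycle genes rose in 32 of 38 cases, 2 being lower (median 1.35), where 32.4% of all genes tested rose and 29.0% fell. Top2a, which untangles DNA before division, held 6.56, 6.5 and 6.71 CPM in the controls and 19.8, 24.5 and 20.1 CPM in the shRNA-labelled hearts (1.70 ± 0.25). The helicase subunit Mcm6 rose by 1.88 ± 0.08, from 9.45, 9.28 and 10.4 to 31.7, 38.3 and 37.5 CPM. Plk1, a mitotic kinase, rose by 2.02 ± 0.29 at a low level, from 1.02, 0.98 and 1.05 to 3.63, 4.69 and 4.08 CPM. Inhibitors rose beside them, Cdkn2b by 2.36 ± 0.37 (0.384 and 1.97 CPM), whereas Cdkn1c fell by 1.33 ± 0.12 (25 and 9.94 CPM) and Cenpf, of the kinetochore, fell by 1.08 ± 0.32 (13.4 and 6.31 CPM), a call that ended under library totals (-0.64). Core clock genes numbered 2 higher and 8 lower of 20 (median -0.11, or 0.33 under library totals). The clock outputs Hlf (20.3, 18.8 and 23.7 against 5.03, 4.55 and 4.73 CPM, -2.13 ± 0.32), Dbp (44.8, 34.5 and 48.8 against 16.8, 16.2 and 23.5 CPM, -1.18 ± 0.43) and Tef (100.4, 96.8 and 112 against 68.7, 60.3 and 60.1 CPM, -0.71 ± 0.22) fell, and Arntl was not called (21.4, 23.9 and 24 against 33.6, 32.9 and 30.5 CPM, 0.49 ± 0.55). For Arntl the groups did not overlap, and the spread used in its test was that of all 18 libraries. The call of Dbp ended without the third control (-1.08), the first shRNA-labelled heart (-1.10) or the second (-1.08), under library totals (-0.74) and by limma on FPKM (-1.07 and -1.18). Tef was not called under library totals (-0.27). The E-box CACGTG, read by clock factors, stood in 6 of 23 promoters of the clock list (26.1%) and in 7.15% of all, and Tef (chr15:81802423-81802722, plus strand, RefSeq, GRCm38.p6) is shown with its match in capitals.
Tef: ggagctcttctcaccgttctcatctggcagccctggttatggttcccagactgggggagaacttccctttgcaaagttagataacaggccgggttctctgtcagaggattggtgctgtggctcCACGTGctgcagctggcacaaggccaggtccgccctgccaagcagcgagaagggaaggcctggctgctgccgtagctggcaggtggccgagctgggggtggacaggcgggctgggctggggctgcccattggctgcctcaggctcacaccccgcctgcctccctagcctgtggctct

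Heart transcription factors mostly fell, with 16 of 25 lower and 5 higher (median -0.29, or 0.15 with 6 lower and 13 higher under library totals). Hopx, a homeodomain protein without DNA binding, fell by 2.39 ± 0.10, from 218, 226 and 229 to 42, 45 and 41.1 CPM, and Tbx5, of the chambers and conduction system, by 0.80 ± 0.10 (30.1 and 17.3 CPM). Runx1, a factor of blood development that reappears in injured heart muscle, rose by 2.53 ± 0.20, from 4.11, 2.84 and 4 to 21.5, 20.1 and 21.8 CPM. In the cytoskeleton 20 of 26 genes rose and 3 fell (median 0.96). Of 12 tubulins 9 rose and 2 fell, with Tubb3 at 4.15 ± 0.25 (0.481 and 8.54 CPM), Tubb2b at 2.31 ± 0.18 (3.19 and 15.9 CPM) and Tuba1a at 1.56 ± 0.10 (47.8 and 141 CPM) higher, and Tuba4a at -1.38 ± 0.13 (447 and 172 CPM) and Tuba8 at -1.25 ± 0.11 (118 and 49.4 CPM) lower. The keratin Krt18, usual in epithelia, rose by 5.43 ± 0.32, from 0.0637, 0.294 and 0.469 to 11.3, 11.9 and 11.9 CPM, and vimentin, Vim, by 1.81 ± 0.07 (236 and 825.6 CPM).

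Markers of cell types moved with these groups, and their part in the results was not tested. Their counts stand beside 32.4% of all genes tested that rose and 29.0% that fell. All 10 cardiomyocyte markers fell (median -1.18), and their summed level was 88960 to 91457 CPM in the controls and 40373 to 41683 CPM in the shRNA-labelled hearts; under library totals 8 fell and 1 rose. Fibroblast markers rose in 9 of 12 cases, 2 being lower (median 0.99), with summed levels of 2547 to 2772 and 5181 to 5721 CPM. Markers of activated fibroblasts rose in 11 of 12 cases (median 4.12), from 357 to 422 CPM in the controls to 5354 to 5507 CPM, while Lrrc15 was not called (-1.32 ± 0.57). Scara5, a marker of resting fibroblasts, fell by 1.89 ± 0.11 (37 and 10 CPM). Macrophage and monocyte markers rose in 14 of 16 cases, 1 being lower (median 1.88), with sums of 510.3 to 543 and 1688 to 1836 CPM. Timd4, of resident macrophages, fell by 1.08 ± 0.25 (3.48 and 1.64 CPM), and Cd163 was not called (-0.09 ± 0.22). T and natural killer cell markers rose in 13 of 15 cases (median 1.89), but their sums were only 4.87 to 5.75 and 13.9 to 22.9 CPM. Endothelial markers fell in 10 of 12 cases (median -0.52, with 3 lower and 2 higher under library totals) at sums of 1507 to 1609 and 1046 to 1068 CPM. Smooth muscle and pericyte markers numbered 4 higher and 5 lower of 10 (median -0.35, or 0.09 under library totals). Their sums were lower, at 2142 to 2193 CPM in the controls and 1480 to 1542 CPM in the other group. Members ran from -1.72 to 4.26, the largest rise being Cnn1 (4.26 ± 0.30, 2.68 and 51.2 CPM).

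The other marker lists were small or low. Of 6 tested atrial markers 5 rose, among them Nppa, and 1 fell (median 2.87). Of these 6 markers 4 reached a mean of 1 CPM in the controls. Myl7, the atrial myosin light chain, was at 0.0637, 0 and 0.0721 CPM in the controls and 0.637, 0.476 and 0.533 CPM in the shRNA-labelled hearts, close to 0 in each library. Sln and Bmp10 did not pass the filter on low counts. Skeletal muscle markers rose in 5 of 8 cases, 1 being lower , with Tnnt3 at 2.86 ± 0.31 (0.719 and 5.26 CPM) and Ckm, also abundant in heart, at -1.89 ± 0.15 (1817 and 492 CPM). The 5 tested erythroid markers fell (median -1.62), at sums of 103 to 161 CPM in the controls and 17.4, 48 and 66.8 CPM in the other group; reads of Hba-a1 and Hba-a2 cannot always be told apart. Of mast and dendritic cell markers 6 of 11 rose and 2 fell, led by Itgax (3.30 ± 0.18, 0.829 and 8.27 CPM) and Flt3 (3.34 ± 0.28, 0.18 and 1.83 CPM). B cell markers numbered 2 higher and 1 lower of 10, neutrophil markers 1 higher of 5, Schwann cell markers 4 higher and 2 lower of 10, adipocyte markers 1 higher and 1 lower of 5, endocardial and lymphatic markers 6 higher and 3 lower of 10, and lipid-associated macrophage markers 8 higher and 1 lower of 10. None of 5 mesothelial markers was called.

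Of 655 long intergenic non-coding RNAs tested 133 rose and 160 fell, smaller shares than the 32.4% and 29.0% of all genes tested. The largest rises of non-coding genes above 5 CPM were 4833412C05Rik (5.92 ± 0.45, 0.149 and 8.98 CPM), Gm13054 (5.46 ± 0.41, 5.59 and 247 CPM) and Gm26917 (3.03 ± 0.20, 8.14 and 66 CPM). Gm13054 is annotated antisense to Nppa and overlaps it (chromosome 4, 148001091 to 148004014), and with strand use in counting not given in the sources used here, its reads cannot be told apart from those of Nppa. The largest falls were Gm28979 (-3.22 ± 0.31, 5.3 and 0.564 CPM), Gm49477 (-3.16 ± 0.19, 13.8 and 1.55 CPM) and Uckl1os (-3.12 ± 0.33, 5.48 and 0.628 CPM), the last also antisense.

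A like comparison in batch LC, with 3 other controls and 3 other hearts labelled Lmna shRNA, called 11247 genes (62.9%). Of the genes called in either batch, 9687 were called in both with the same direction (88.3% of the calls in batch LA and 86.1% of those in batch LC), 6 in both with opposite directions, 1282 in batch LA alone and 1554 in batch LC alone. The difference between the effects was tested itself, and edgeR called 1 gene (0.00559%), with 1143 at an unadjusted p under 0.05, 8 called by DESeq2, and 24 called by edgeR without the third control of either batch. By p the first gene not called was Fgf2, at 0.26 ± 0.06 in batch LA and 0.76 in batch LC (edgeR adjusted p = 0.141). Fgf2 was called by DESeq2 (-0.49, LA minus LC) and by edgeR without the third controls (-0.55). Cdkn1a (-1.54) and Arntl (-1.86), described above, were also among the 24 genes of that setting. Genes not called were not shown to respond alike: a test that finds no difference at this size leaves small differences unseen.

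**Figure D5:**
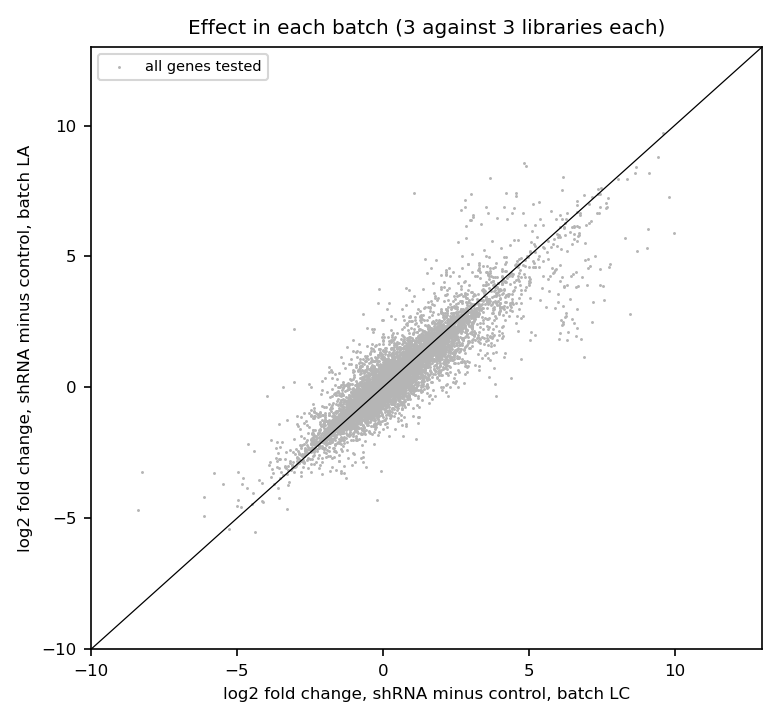
Log2 fold change of every gene tested in batch LC (x axis) and batch LA (y axis), with the line of equal effect. Genes lie along the line over the whole range, and 9687 of them were called in both batches in the same direction.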

How the data were processed

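RNA of mouse heart apex kept in RNAlater was extracted with Trizol, selected with poly-T beads and made into a directional library with dUTP, per the labels' protocols. The submitters' processing notes name the build mm10 and the tools StringTie 1.3.3b, DESeq2 1.20.0, featureCounts 1.5.0-p3 and HISAT2 2.0.5, with strand use in counting not given in the sources used here. The authors deposited whole-number counts per gene and FPKM, which corrects for gene length and depth. Counts of all 18 libraries in 6 groups were fitted in edgeR 4.0.16 (R 4.3.3) with TMM scaling, filterByExpr and the quasi-likelihood F test, and p-values were Benjamini-Hochberg adjusted over 17876 genes at a threshold of 0.05. The shared fit left 12 residual degrees of freedom and a biological coefficient of variation of 9.13%. The difference between batches was an interaction contrast in the same fit. FPKM entered the shares of gene families and limma 3.58.1 on log2(FPKM + 1) or log2(FPKM + 0.1), with at least 1 FPKM in 3 libraries. DESeq2 1.42.0, other scalings, no filter, a replicate block and leaving out each library were the alternatives.

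Named genes are Lmna, the 12 largest rises and falls among called protein-coding genes at 5 CPM or more in the higher group without overlap, and, in each of 64 gene lists, called members of smallest p, the most abundant member and members needed to describe a role. The most abundant called genes, the 3 largest non-coding rises and falls, and genes of the difference between batches were added. The genes and lists were chosen with earlier results of these data known. Genes with at most 3 counts in a group are given as count ratios, whose 95% intervals cover counting error only. A count of 3 equals 0.0695 to 0.108 CPM by library. On simulated data the test recovered 77.6% of genes changed 1.5-fold and 100% of those changed 2-fold in the comparison, with 13 false calls among 17263 genes, and 40.3% and 97% for the difference between batches. The simulation gave every gene the same dispersion and changed few genes, none of low level, as many up as down. In the data 61.4% of genes were called and the spread differs by gene. These shares therefore check the code and do not measure power or false calls in these data. Promoters (RefSeq, GRCm38.p6) were matched by symbol for 985 of 1337 list genes and searched on both strands, and protein sequences were not used here. Some genes, among them 1 of the difference between batches, are not reported here.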

Additional observations from a re-analysis of the deposited data

How the results depend on the processing

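Between 8809 and 12907 genes were called in batch LA over the settings tried, against 10975, and 10276 to 10403 when 1 library was left out. Under library totals 10637 genes were higher and 2270 lower, Lmna was called higher (0.55), and the direction turned for Actc1 (0.14), Gja1 (0.03), Hspa5 (0.02), Lamb2 (0.22), Mybpc3 (0.02), Npr1 (0.09), Npr2 (0.15), Sun1 (0.06), Sun2 (0.03), Syne1 (0.01), Syne2 (0.03) and Tnnt2 (0.03). Of these genes Actc1, Lamb2 and Npr2 were called higher under library totals. The direction also turned for the medians of the lists for lamina (0.37), Z-disc (0.22), adrenergic signalling (0.25), renin and apelin (0.11), NAD (0.13), tRNA synthetases (0.40), heat shock (0.43), autophagy (0.10), clock (0.33), cardiac factors (0.15), smooth muscle (0.09) and mesothelium (0.06). This follows from the scaling itself, which raised the median of all genes from 0.05 to 0.48.

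List medians near 0 turned under other settings. The natriuretic median was -0.01 with the groups of batch LA alone, -0.02 without mitochondrially encoded genes, and -0.01 and -0.04 without the first control or first shRNA-labelled heart. Leaving out 1 library gave -0.05 to 0.04 for heat shock (0.01 without the third control), -0.08 to 0.24 for B cells, -0.01 to 1.31 for neutrophils, -0.34 to 0.20 for mesothelium, and as low as -0.03 for Schwann cells. Without mitochondrially encoded genes Schwann cells were at -0.19, and with the groups of batch LA alone mesothelium was at 0.45. These medians were over 9 and 2 genes that passed the filter there, against 10 and 5 in the main comparison. The cause was not tested. The gap in the mitochondrial share was -14 percentage points without the 10 most abundant nuclear genes.

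The difference between batches rests on the setting. Without the filter 247 genes were called (87 higher, 160 lower), without the third control of both batches 24 (12 higher, 12 lower), by DESeq2 8 (5 higher, 3 lower), and 0 to 1 when 1 library of batch LA was left out. With the replicate number as a block 0 genes were called. The block gave 10775 calls in batch LA, the labels do not say that a number marks a shared animal or day, and same-numbered libraries did not deviate together (correlations -0.08, 0.029 and -0.007). Depth limits genes near 3 counts in a library.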
